A study of Mus musculus with 18 samples.

Results

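The comparison described here sets Med1 mutant against wild-type (WT) B cells that had been cultured with lipopolysaccharide (LPS) alone. Its members are the 6 libraries whose labels give day 2 of culture and LPS as the only stimulus, 3 from Med1 mutant cells and 3 from WT cells, of 18 libraries in the series. The other 12 libraries, from an earlier deposit, hold resting cells and cells cultured with LPS and interleukin 4 (IL4) of the same genotypes and enter only where the conditions are set side by side. All cells were mature CD43-negative splenic B cells of mouse, fixed with formaldehyde. The labels call the genotypes Med1 Mutant and Wild-type and name no allele, Cre line, strain or age, and they do not say whether the replicates came from separate animals. P-values therefore measure only the spread between these libraries, which may be technical. Genomic DNA carries no level of expression, so neither the loss of Med1 nor the identity of the cells could be checked in these data.

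Med1 is a subunit of Mediator, the complex that links transcription factors bound at enhancers to RNA polymerase II. In the immunoglobulin heavy chain locus (Igh), the intronic enhancer Eμ lies between the J segments and the constant gene Ighm, and the 3' regulatory region (3'RR), a cluster of enhancers with hypersensitive sites named hs3a, hs1,2, hs3b and hs4, lies beyond the last constant gene, Igha. In activated B cells both enhancers contact the promoters upstream of the constant genes, and transcription through the switch regions there opens them to the deaminase AID, which starts class switch recombination. LPS alone directs switching to Ighg3 and Ighg2b, whereas LPS with IL4 directs it to Ighg1 and Ighe.

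Contacts were measured by 4C-seq, in which DNA cut with DpnII, ligated, cut with Csp6I and ligated again is amplified outward from a single bait. The bait end, which held the most reads of chromosome 12 in the earlier deposit, lay in Eμ at chr12:113426025-113426048 (mm10), and the primer pair, as stated in the series' design, is shown because each value below is a contact of this one fragment.
primer 1: tctgtcctaaaggctctgaga
primer 2: gaacacagaagtatgtgtatgga
Igh is transcribed toward the centromere, so the constant genes and the 3'RR lie at lower coordinates than the bait, and the D and VH segments at higher ones.

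The 6 deposited files list intervals of 24 bp at fragment ends with no value beside them. A listed end is called covered here, and the depth behind a list is unknown. The Med1 mutant libraries, replicates 1 to 3, listed 48598, 55304 and 48518 ends, against 57600, 47312 and 65512 in the WT libraries, or 50807 ± 3900 against 56808 ± 9130 (mean ± SD, n = 3 each, exact two-sided permutation p = 0.4). On chromosome 12 beyond 5 kb from the bait, 7416, 8987 and 6661 ends were listed in mutant libraries, against 9741, 7576 and 10406 in WT libraries (exact p = 0.2). The ranges overlapped, since WT replicate 2 had a shorter list than mutant replicate 2. On the other chromosomes the mutant lists held 41135, 46269 and 41815 ends and the WT lists 47812, 39692 and 55060 (exact p = 0.5). Chromosome 12 made up 15.27, 16.26 and 13.74% of the mutant lists and 16.93, 16.03 and 15.9% of the WT lists (exact p = 0.3). With 3 libraries against 3 the exact test cannot go below p = 0.1, and over the 6 measures of this family, which include the ends within 1 Mb, adjusted values were 0.48 to 0.5.

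Ends with more reads in the LPS and IL4 cultures were listed more often. Of the ends of chromosome 12 with 1000 or more reads summed over those 6 libraries, 54.5, 58.5 and 47.9% were listed in the mutant LPS libraries, against 62.2, 54.1 and 60% in the WT LPS libraries. Of the ends with 1 to 9 such reads, 7.36, 8.97 and 6.66% were listed in the mutant libraries, against 8.37, 7.59 and 10.7% in the WT libraries. A covered part near 100% cannot go up with more reads, whereas one near 10% can.

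**Figure D1:**
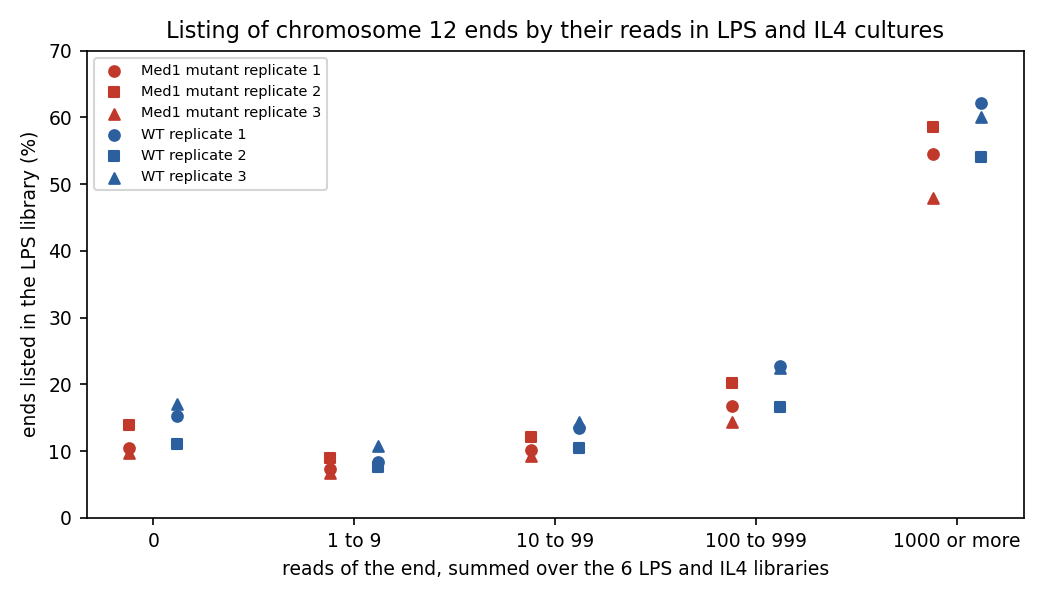
Share of chromosome 12 ends listed in each LPS library (y axis, %), by the reads of the end summed over the 6 LPS and IL4 libraries (x axis), with Med1 mutant libraries left of WT libraries in each class. The shares are 47.9 to 62.2% in the class of 1000 or more reads and 6.66 to 10.7% in the class of 1 to 9; ends with no read there enter only because another library lists them, so that class is not on the same footing.

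Before the regions are compared, the lists have to be compared with each other, because 3 pairs of libraries of opposite genotype had far more ends in common than any other pair. Mutant replicate 2 and WT replicate 3 listed 9914 ends on other chromosomes that none of the other 4 LPS libraries listed. These were 21.4% and 18% of the ends that the 2 libraries listed on other chromosomes. Mutant replicate 3 and WT replicate 1 had 6517 such ends (15.6% and 13.6%), and mutant replicate 1 and WT replicate 1 had 3788 (9.21% and 7.92%). The other 12 pairs, all 6 pairs within a genotype among them, had 901 to 1436. Measured as the ends listed by both over the ends listed by either, the 3 pairs shared 34.8, 31.1 and 29% of their ends on other chromosomes and the other 12 pairs 18.8 to 23.6%. On chromosome 12 beyond 10 Mb from the bait the 3 pairs shared 45.7, 33.9 and 33.1%, against 11.7 to 19.4% for the others. WT replicate 2 was in none of these pairs. Its list and that of mutant replicate 1 were of nearly equal length on chromosome 12, and between those 2 libraries the covered part was lower in the mutant library in 15 of 27 regions, higher in 10 and equal in 2. How the shared ends arose was not tested, and the results below are therefore also given without WT replicate 1 and mutant replicate 2, which leaves none of the 3 pairs.

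**Figure D2:**
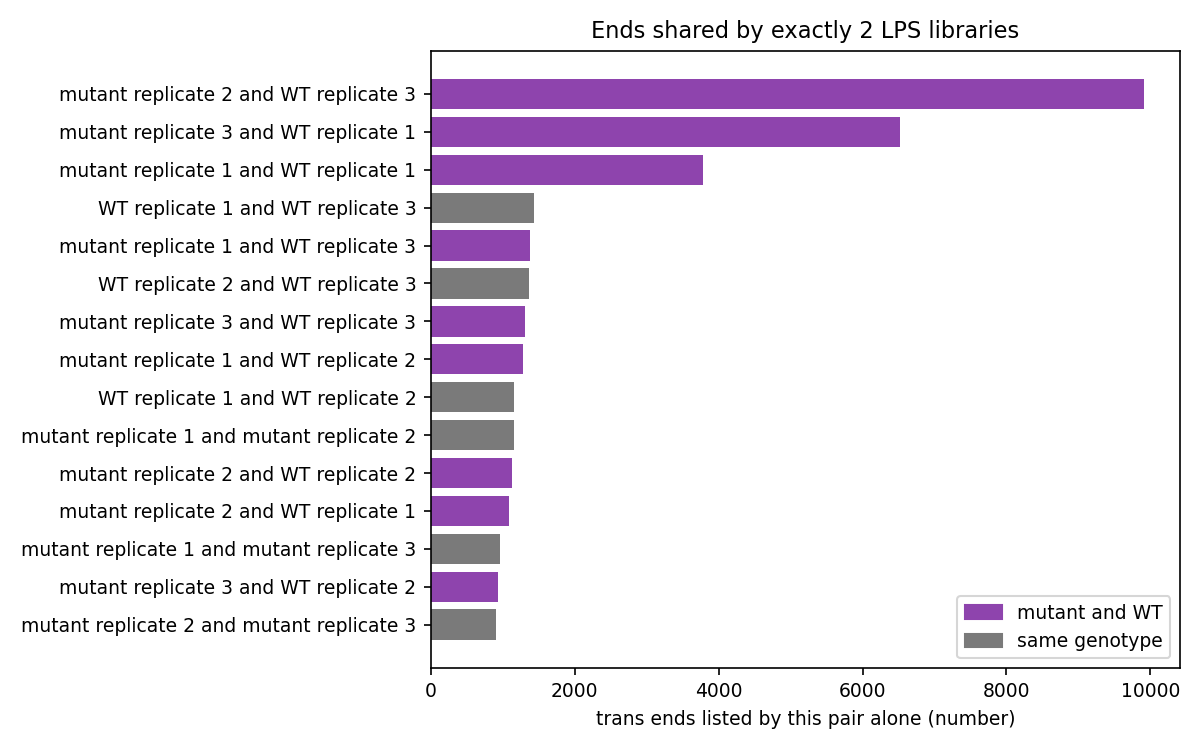
Ends on other chromosomes listed by exactly 2 of the 6 LPS libraries (x axis, number of ends), 1 bar for each of the 15 pairs, coloured by whether the pair joins the genotypes. The 3 longest bars, 9914, 6517 and 3788, join a mutant and a WT library, and the other 12 lie between 901 and 1436.

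On chromosome 12, 27 regions were compared, of which 21 are elements within 1 Mb of the bait on the constant side or up to the last VH gene, and 6 are bands of the rest of the chromosome. The pieces hs3a, hs1,2, hs3b and hs4 lie inside the 3'RR, so their ends count under both. In 25 of the 27 regions the mean covered part, the percentage of the region's ends that were listed, was lower in mutant than in WT libraries; it was equal at Igha and higher at hs3b. Without the 4 pieces it was lower in 22 of 23. The groups did not overlap in the covered part at 2 regions, Ighg1 and Ighm, which is 7.41% of all regions. The shorter mutant lists move with this pattern, and their part in it was not tested. Taken as a share of the library's covered ends on chromosome 12, which was the value tested, 20 of the 27 regions were higher in the mutant libraries and 7 lower (16 and 7 of 23 without the 4 pieces of the 3'RR), with log2 differences of mutant over WT from -0.17 to 0.30 and a median of 0.09. No region passed the test (limma with Benjamini-Hochberg adjustment over 27 regions, 0 called, 0%, smallest adjusted p = 0.658); 1 had an unadjusted p under 0.05. Shares did not overlap between genotypes in 2 regions (7.41%), with Igha above (3.7%) and the telomeric end below (3.7%). The 2 readings run in opposite directions at most elements: of the 8 constant genes, 7 had a lower covered part and 8 a higher share in the mutant libraries, none of them called. Without WT replicate 1 and mutant replicate 2, limma called 0 of 27 regions, 0 of 375 windows of 10 kb, 0 of 217 chromosome 12 bins and 0 of 2429 trans bins, with 1, 12, 8 and 140 at an unadjusted p under 0.05, and 21 of the 27 regions had the higher share in the mutant libraries. Leaving out instead the ends that 1 of the 3 pairs alone listed, limma called 13 of 27 regions, 11 higher and 2 lower in share in the mutant libraries (smallest adjusted p = 0.00163). That setting removes ends unevenly, since 6414, 6051 and 5304 chromosome 12 ends were left in mutant libraries, against 7382, 7576 and 7470 in WT libraries, and WT replicate 2 lost none.

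The genotypes were also compared within 2 sets of libraries joined by shared ends, mutant replicate 2 with WT replicate 3, and mutant replicates 1 and 3 with WT replicate 1. Mutant replicates 1 and 3 were joined only through WT replicate 1. As a pair alone they listed 962 ends on other chromosomes, within the range of the pairs not joined. In both sets 19 of the 27 regions had a higher and 4 a lower share in the mutant libraries, and in the other 4 the sets differed in sign. The 19 include the 3'RR and also hs3a, hs1,2, hs3b and hs4, whose ends lie inside it. Igha was higher in the mutant libraries by log2 differences of 0.27 and 0.34 in the 2 sets, the 3'RR by 0.18 and 0.36 and Ighg3 by 0.07 and 0.39, and the telomeric end was lower (-0.17 and -0.16). With the sets as a block limma called 0 of 27 regions, with 11 at an unadjusted p under 0.05 and a smallest adjusted p of 0.0679. WT replicate 2, which is in neither set, had a block of its own there and so did not enter the genotype difference. With that library simply left out and no block, limma called 0 of 27 regions, with 10 at an unadjusted p under 0.05. In both sets each mutant list was shorter than the WT list on chromosome 12, and the part of this in the shared direction was not tested.

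**Figure D3:**
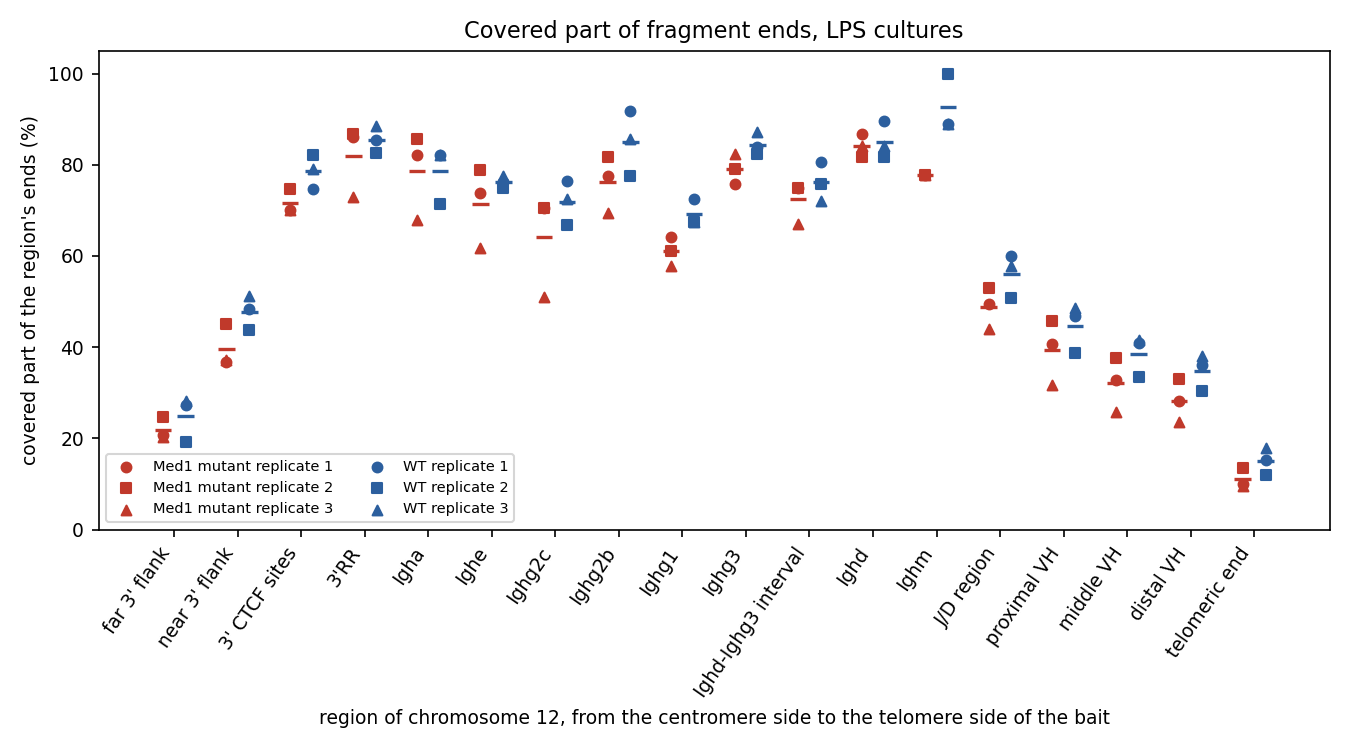
Covered part of the ends of 18 regions (y axis, %) in the 3 Med1 mutant libraries, left of each position, and the 3 WT libraries, right of it; horizontal bars are means. The points of the genotypes overlap at all regions drawn except Ighg1 and Ighm.

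The Ighg3 unit (chr12:113357442-113371232), the constant gene of IgG3 with up to 10 kb upstream, holds 62 ends. Of these, 75.8, 79.0 and 82.3% were covered in mutant libraries, against 83.9, 82.3 and 87.1% in WT libraries, or 79.0 ± 3.23% against 84.4 ± 2.46% (SD, n = 3 each, exact two-sided permutation p = 0.2). Mutant replicate 3 equalled the lowest WT library and the other 2 mutant libraries lay below all WT libraries. Split at the end of the gene, the upstream part, which holds the switch region and the promoter of the germline transcript, had 36, 38 and 39 of 49 ends covered in mutant libraries, against 40, 40 and 42 in WT libraries. Within the gene 11, 11 and 12 of 13 ends were covered in mutant libraries, against 12, 11 and 12 in WT libraries. The 3 mutant libraries lay below all WT libraries in the upstream part, as also upstream of Ighg1 and within the Ighg2b gene. In the other parts of the constant genes split this way the counts overlapped. The nearest counts of the genotypes were 39 and 40 upstream of Ighg3, and 12 and 13 in the Ighg2b gene. Over all windows of 10 kb, all mutant libraries lay below all WT libraries in 24 of 375 (6.4%) and above them in 0. None of these parts was tested, and little can be read from parts picked for not overlapping. As a share of covered chromosome 12 ends, Ighg3 had 0.634, 0.545 and 0.766% in mutant libraries, against 0.534, 0.673 and 0.519% in WT libraries, a log2 difference of 0.17 ± 0.15 (SE, limma adjusted p = 0.707). The difference was 0.24 without WT replicate 1 and mutant replicate 2 and 0.04 on the scale of hits per end, -ln(1 - covered part) relative to that of chromosome 12 as a whole, with no call in either.

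Ighg2b (chr12:113304314-113317933), the other constant gene that LPS directs switching to, had 77.6, 81.6 and 69.4% of 49 ends covered in mutant libraries, against 91.8, 77.6 and 85.7% in WT libraries. The means were 76.2 ± 6.23% against 85 ± 7.17% (SD, n = 3 each, exact p = 0.3), and WT replicate 2 lay among the mutant libraries. In the gene itself 11, 12 and 10 of 17 ends were covered in mutant libraries, against 16, 13 and 15 in WT libraries, so the counts did not overlap. Upstream of it 27, 28 and 24 of 32 ends were covered in mutant libraries, against 29, 25 and 27 in WT libraries, and there they did. The log2 difference in share was 0.11 ± 0.11 (SE, limma adjusted p = 0.749) and turned to -0.12 with hits per end. Both isotypes of LPS culture thus had fewer of their ends covered on average in the mutant libraries, by 5.4 to 8.8 percentage points, within an overlap of the genotypes and with no test passed. This was not particular to them, since the mean was lower in 25 of all 27 regions. Mutant minus WT was -8.07 points at Ighg1 and -8.05 in the near 3' flank.

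Ighg1 (chr12:113326541-113340523), which needs IL4 for switching, was 1 of the 2 regions where covered parts did not overlap, with 64.2, 61.1 and 57.9% of 95 ends in mutant libraries, against 72.6, 67.4 and 67.4% in WT libraries. The means were 61.1 ± 3.16% and 69.1 ± 3.04% (SD, n = 3 each), with an exact permutation p = 0.1, the smallest that 3 against 3 can give. The 72 upstream ends had 46, 46 and 44 covered in mutant libraries, against 55, 49 and 51 in WT libraries, so the counts did not overlap. The 23 ends in the gene had 15, 12 and 11 covered in mutant libraries, against 14, 15 and 13 in WT libraries, and there they did. The log2 difference in share, 0.09 ± 0.15 (SE, limma adjusted p = 0.755), went the other way from the covered part, and it was -0.03 with hits per end.

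Ighe (chr12:113269263-113283248), the IgE gene, had 73.7, 78.9 and 61.8% of 76 ends covered in mutant libraries, against 76.3, 75 and 77.6% in WT libraries. Ighg2c (chr12:113287389-113298932) had 70.6, 70.6 and 51% of 51 ends in mutant libraries, against 76.5, 66.7 and 72.5% in WT libraries. At both genes mutant replicate 3, the library with the fewest covered ends on chromosome 12, lay far below the rest, and the other 2 mutant libraries lay within or close to the WT range. Igha (chr12:113256204-113269262), the IgA gene and the constant gene nearest the 3'RR, had 82.1, 85.7 and 67.9% of 28 ends in mutant libraries, against 82.1, 71.4 and 82.1% in WT libraries, with equal means of 78.6%. All 7 ends in the Igha gene were covered in all 6 libraries. Its share was 0.31, 0.267 and 0.285% in mutant libraries, against 0.236, 0.264 and 0.221% in WT libraries, so that the genotypes did not overlap. The log2 difference was 0.26 ± 0.11 (SE, limma adjusted p = 0.658), and this was the region with an unadjusted p under 0.05 (0.0377). This region thus shows a higher share with the same mean covered part, where the share is divided by chromosome 12 lists that were shorter on average in the mutant. Scaled to covered ends on other chromosomes the log2 difference was 0.125. It was 0.295 with hits per end and 0.039 on the log odds of the covered part with no scaling, none of them called.

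Ighm (chr12:113418826-113426024), the first constant gene, adjoins the bait, and 9 of its ends lay beyond 5 kb. In each mutant library 7 of the 9 were covered (77.8%), against 8, 9 and 8 in WT libraries (88.9, 100 and 88.9%, exact permutation p = 0.1). The log2 difference in share was 0.04 ± 0.18 (SE, limma adjusted p = 0.877), and on the log odds of the covered part, with no scaling, it was -1.50 (adjusted p = 0.00135), the single region called on that scale. That call rests on a difference of 1 or 2 ends out of 9 between libraries. Ighd, the next constant gene, had 86.8, 81.6 and 84.2% of 38 ends covered in mutant libraries, against 89.5, 81.6 and 84.2% in WT libraries, which is the same value in 2 of 3 libraries of each genotype. The interval of 140 ends between Ighd and the Ighg3 unit (chr12:113371233-113407534) had 75, 75 and 67.1% covered in mutant libraries, against 80.7, 75.7 and 72.1% in WT libraries, an overlap.

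The 3'RR, taken as 35 kb beyond Igha (chr12:113221204-113256203), was among the most covered stretches of the locus. Of its 166 ends 86.1, 86.7 and 72.9% were covered in mutant libraries, against 85.5, 82.5 and 88.6% in WT libraries, or 81.9 ± 7.83% against 85.5 ± 3.01% (SD, n = 3 each, exact p = 0.7). Mutant replicates 1 and 2 lay inside the WT range and mutant replicate 3 below it. The log2 difference in share was 0.20 ± 0.12 (SE, limma adjusted p = 0.658). The 4 kb pieces placed at the approximate positions of the hypersensitive sites hold 10 to 16 ends each and overlapped between genotypes. At hs3b all 12 ends were covered in each mutant library, and 12, 11 and 12 in WT libraries. At hs1,2, 90, 80 and 60% of 10 ends were covered in mutant libraries, against 80% in each WT library. At hs4 the values were 68.8, 68.8 and 75% of 16 ends in mutant libraries, against 75, 75 and 68.8% in WT libraries. At hs3a they were 75, 81.2 and 68.8% of 16 ends, against 81.2, 75 and 87.5%.

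The shares of the 3'RR, Ighg3 and the telomeric end were also set against the length of the list. Ordered from the shortest list on chromosome 12 to the longest, the libraries are mutant replicates 3 and 1, WT replicate 2, mutant replicate 2, and WT replicates 1 and 3. In that order the 3'RR took 1.82, 1.93, 1.81, 1.6, 1.46 and 1.41% of the covered ends of chromosome 12. WT replicate 2, the WT library with the shortest list, had a 3'RR share near those of mutant replicates 1 and 3. Ighg3 took 0.766, 0.634, 0.673, 0.545, 0.534 and 0.519% in the same order. The telomeric end took 6.01, 5.74, 6.64, 6.4, 6.56 and 7.22%, so that the longest list had the largest telomeric share and the smallest shares of the 3'RR and Ighg3. Proximal VH took 4.4, 5.04, 4.71, 4.68, 4.43 and 4.31%, which fell from the second shortest list to the longest. Middle VH took 10, 11.5, 11.5, 10.9, 10.9 and 10.4%, and distal VH 7.07, 7.61, 8.01, 7.38, 7.44 and 7.31%. In both of these the shortest list had the smallest share. Since the mutant lists were shorter on average, list length and genotype cannot be told apart for any of these shares.

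The 3' CTCF sites, bound by the factor that limits loops and insulates the locus, were taken as the 20 kb beyond the 3'RR. Of 67 ends there, 70.1, 74.6 and 70.1% were covered in mutant libraries, against 74.6, 82.1 and 79.1% in WT libraries (exact p = 0.2), where the highest mutant library equalled the lowest WT library. Beyond them coverage dropped in both genotypes. The near 3' flank (chr12:112926025-113201203) had 36.8, 45.0 and 37.3% of 911 ends covered in mutant libraries, against 48.3, 43.8 and 51.2% in WT libraries, or 39.7 ± 4.6% against 47.7 ± 3.71% (SD, n = 3 each, exact p = 0.2). Its log2 difference in share was -0.005 ± 0.106 (SE, limma adjusted p = 0.960). The far 3' flank, up to 1 Mb from the bait, had 20.8, 24.6 and 20.3% of 1386 ends in mutant libraries, against 27.3, 19.3 and 28.1% in WT libraries. The step from the 3' CTCF sites to the near flank was thus from means of 71.6% to 39.7% in mutant libraries and of 78.6% to 47.7% in WT libraries.

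On the other side of the bait, the J/D region (chr12:113426025-113572928) had 49.5, 52.9 and 43.9% of 374 ends covered in mutant libraries, against 59.9, 50.8 and 57.8% in WT libraries. The VH genes, which encode the variable domain and are joined to D and J earlier in B-cell development, were split by distance from the bait. Proximal VH, up to 500 kb, had 40.6, 45.7 and 31.8% of 922 ends in mutant libraries, against 46.9, 38.7 and 48.6% in WT libraries. Middle VH, up to 1.5 Mb, had 32.9, 37.7 and 25.7% of 2601 ends in mutant libraries, against 40.9, 33.4 and 41.6% in WT libraries. Distal VH (chr12:114926025-116009954) had 28.2, 33.1 and 23.5% of 2003 ends in mutant libraries, against 36.2, 30.3 and 38.0% in WT libraries (exact p = 0.2). In each of these segments mutant replicate 3 was lowest, WT replicate 2 lay below mutant replicate 2, and the genotypes overlapped. Coverage declined from the J/D region to distal VH in all 6 libraries. The log2 differences in share were 0.06 for J/D, 0.07 for proximal, -0.01 for middle and -0.05 for distal VH, each with an SE of 0.09 to 0.11 and none called.

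**Figure D4:**
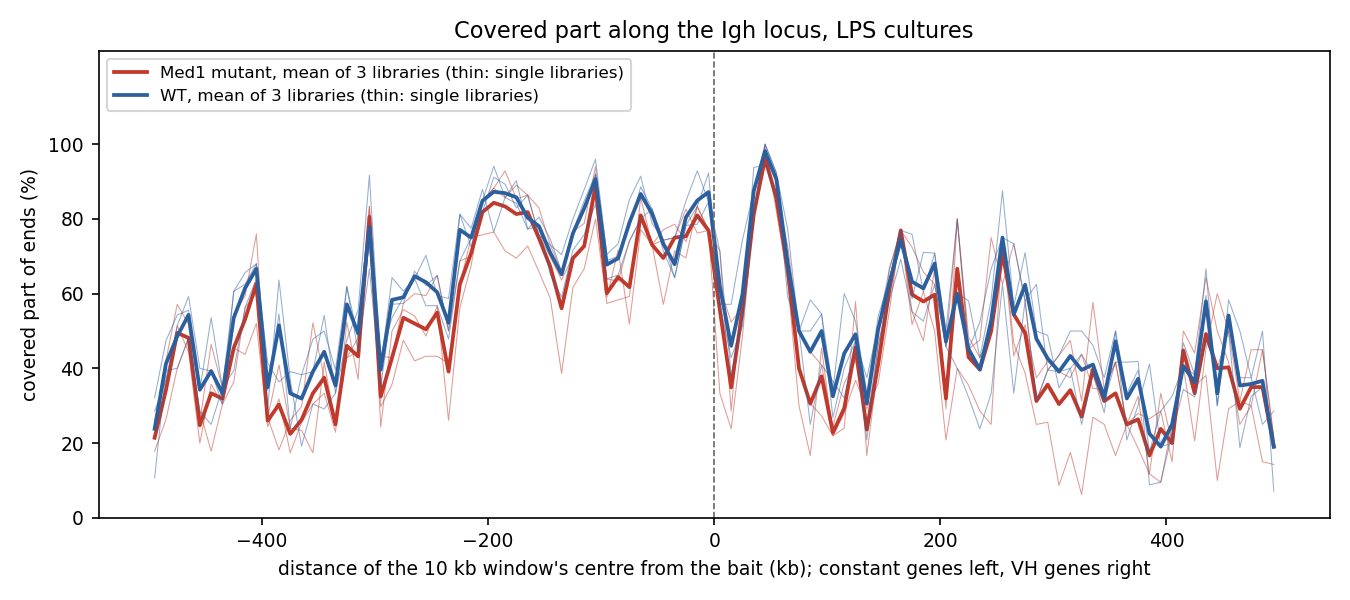
Covered part of ends in windows of 10 kb (y axis, %) by distance from the bait (x axis, kb), with constant genes at negative and VH genes at positive distances. Thick lines are means of 3 Med1 mutant or 3 WT libraries and thin lines single libraries, and windows with a mean under 2 covered ends are not drawn. The covered part is higher around the constant genes and the 3'RR than toward the ends of the plot in both genotypes, with means of 81.9% in mutant and 85.5% in WT libraries over the 3'RR.

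In windows of 10 kb from 1 Mb on the constant side to 3 Mb on the VH side, the mean covered part was lower in mutant libraries in 315 of 375 windows and higher in 42. All 3 mutant libraries lay below all 3 WT libraries in 24 windows (6.4%), and above them in 0 (0%). Of the 20 windows over the constant genes and the 3'RR, 18 had the lower mean in mutant libraries and 2 the higher. Taken library by library, the median over these windows was 69.5 to 76.8% of ends covered in mutant libraries, against 76.9 to 83.8% in WT libraries. All 3 mutant libraries lay below all 3 WT libraries in 2 of the 20 windows and above them in 0. Of the 234 windows over the VH genes, 194 had the lower mean in mutant libraries and 27 the higher. As shares, 0 of 375 windows (0%) were called by limma, 8 had an unadjusted p under 0.05, and 23 (6.13%) did not overlap, 18 (4.8%) higher and 5 (1.33%) lower in the mutant libraries. The 3 windows with the lowest p, none called (adjusted p = 0.999), hold Inf2, Ighv1-1 and Esyt2. The window at Ighv1-1, a VH gene (chr12:114346025-114356024), had 4, 3 and 2 of 24 ends covered in mutant libraries, against 6, 5 and 9 in WT libraries. The window at Esyt2, a membrane tether gene beyond the VH genes (chr12:116386025-116396024), had 2, 1 and 3 of 29 ends in mutant libraries, against 7, 6 and 5 in WT libraries. The window at Inf2, a formin gene in the far 3' flank (chr12:112586025-112596024), had 8, 9 and 5 of 28 ends in mutant libraries, against 6, 3 and 7 in WT libraries.

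The telomeric end of the chromosome, from the last VH gene on (chr12:116009955-120028310), had 10.1, 13.6 and 9.49% of 4214 ends covered in mutant libraries, against 15.2, 11.9 and 17.8% in WT libraries. Its share was 5.74, 6.4 and 6.01% of covered chromosome 12 ends in mutant libraries, against 6.56, 6.64 and 7.22% in WT libraries, so that shares did not overlap, while covered parts did. WT replicate 3, with the longest list, had the largest share. The log2 difference was -0.17 ± 0.10 (SE, limma adjusted p = 0.658), the lowest of the 27 regions. It was -0.24 without WT replicate 1 and mutant replicate 2, again with no call. Toward the centromere, the band of 1 to 3 Mb from the bait had 10.6, 14.2 and 9.46% of its ends covered in mutant libraries, against 15.2, 11 and 17.1% in WT libraries. The band of 3 to 10 Mb had 7.11, 9.18 and 7.36% in mutant libraries, against 11.4, 7.26 and 11.4% in WT libraries. In the 3 bands beyond 10 Mb means were 8.29 to 9.81% in mutant libraries and 9.73 to 11.5% in WT libraries, and log2 differences in share lay between -0.05 and 0.04. In bins of 500 kb over the whole chromosome, 0 of 217 (0%) were called by limma, 6 had an unadjusted p under 0.05 and 21 (9.68%) did not overlap, 11 (5.07%) higher and 10 (4.61%) lower in the mutant libraries. The 3 bins with the lowest p, none called (adjusted p = 0.997), were higher in share in the mutant libraries. The first of them (chr12:62000001-62500000) had 19, 17 and 17 of 98 ends covered in mutant libraries, against 14, 9 and 16 in WT libraries. The other two, at chr12:9500001-10000000, which holds Osr1, and chr12:27500001-28000000, had log2 differences of 0.50 and 0.55.

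**Figure D5:**
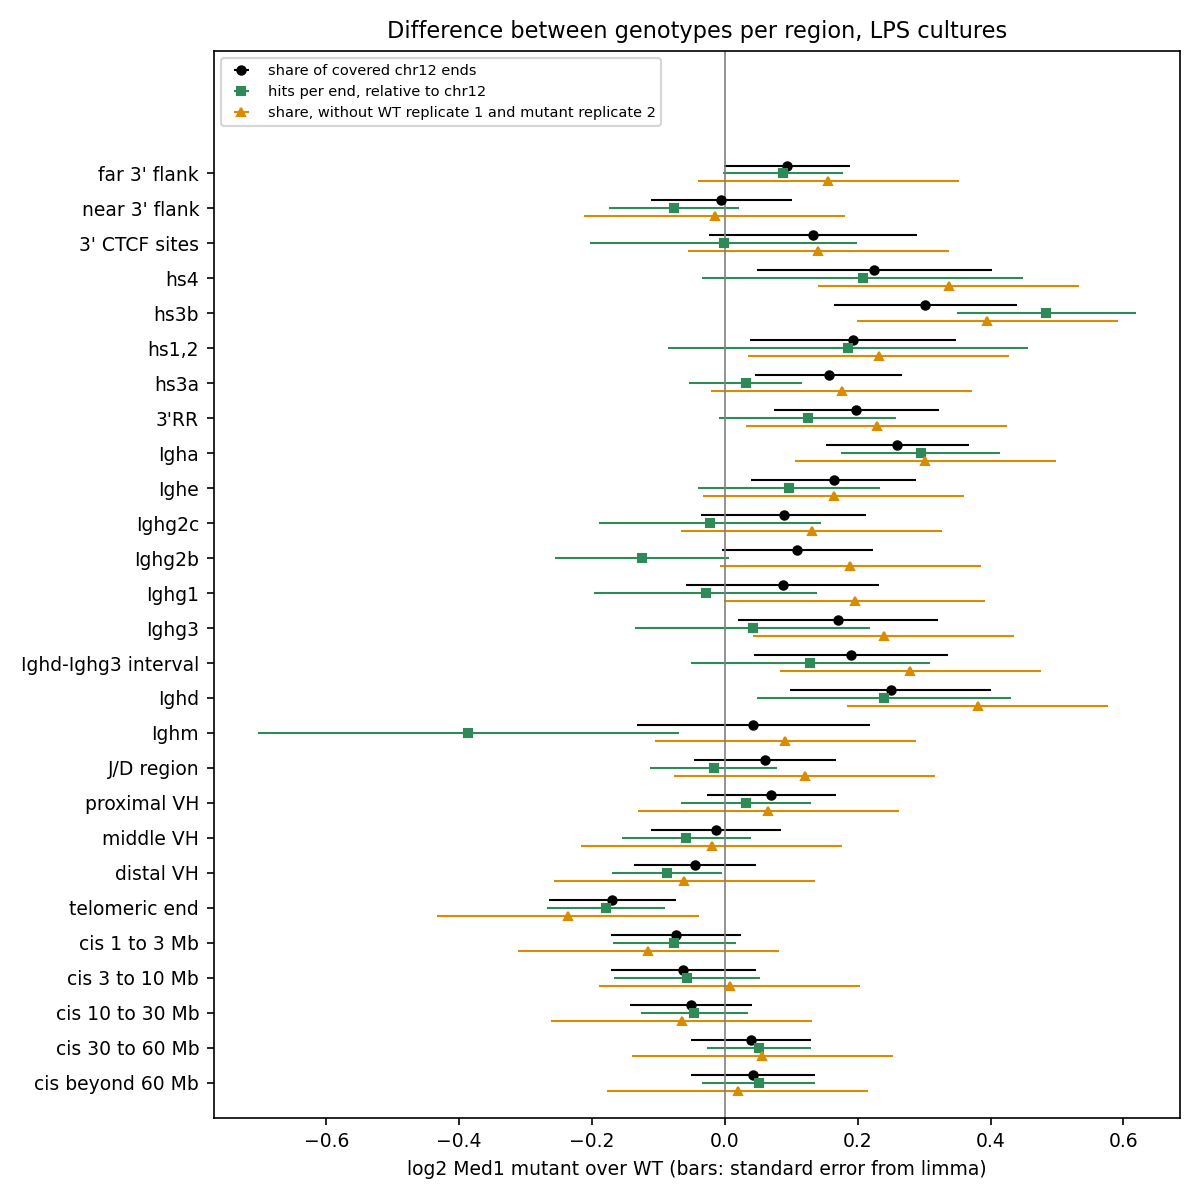
Log2 difference of Med1 mutant over WT (x axis; bars are standard errors from limma) for the 27 regions, as shares of covered chromosome 12 ends, as estimated hits per end, and as shares without WT replicate 1 and mutant replicate 2. Shares run from -0.17 at the telomeric end to 0.30 at hs3b, and the sign turns with hits per end for Ighm, Ighg1, Ighg2b, Ighg2c, the 3' CTCF sites and the J/D region.

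Single ends were also followed. On chromosome 12 beyond 5 kb, 1481 of 56859 ends known from any library of the series were listed in all 6 LPS libraries. Listed in all 3 mutant and no WT library were 17 ends (0.0299%), and in all 3 WT and no mutant library 58 (0.102%). Between the 3' CTCF sites and the J/D region 6 ends had such a split, all of them listed by WT alone. These were 1 end upstream of Ighg1 (chr12:113332308-113332331), 2 upstream of Ighg3 (chr12:113362088-113362111 and chr12:113367200-113367223), 1 in the Ighm unit (chr12:113419632-113419655) and 2 in the J/D region (chr12:113534600-113534623 and chr12:113538378-113538401). The 3'RR, Igha, Ighe, Ighg2c, Ighg2b and Ighd had none. Of the LPS and IL4 libraries of both genotypes, 2 to 6 listed each of the 6 ends. As parts of all ends they were 1.05% at Ighg1, 3.23% at Ighg3, 11.1% of the 9 ends at Ighm and 0.535% in the J/D region. Elsewhere, proximal VH had 4 of 922 ends (0.434%) split toward WT and 0 toward mutant. Middle VH had 6 of 2601 (0.231%) split toward WT and 2 toward mutant. With so few ends, little can be read from these counts. On the other chromosomes 287 ends were split toward mutant (0.0749%) and 584 toward WT (0.152%). On chromosome 12 and on the other chromosomes alike more ends were split toward WT, the genotype with the longer lists on average.

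On the other chromosomes no difference in the distribution of contacts passed the test. Chromosomes 1 to 11, 13 to 19 and X differed in their share of covered trans ends by log2 values from -0.029 to 0.029, with 0 of 19 called (0%) by limma, none at an unadjusted p under 0.05, and a smallest adjusted p of 0.951. The X chromosome took 9.8, 9.48 and 9.26% of trans ends in mutant libraries, against 9.38, 9.54 and 9.12% in WT libraries. In bins of 1 Mb, 0 of 2429 (0%) were called by limma, 50 had an unadjusted p under 0.05 and 172 (7.08%) did not overlap, 94 (3.87%) higher and 78 (3.21%) lower in the mutant libraries. The bins with the lowest p, none called, were chr19:21000001-22000000, chr1:90000001-91000000 and chr11:68000001-69000000. The first, which holds Tmc1 and Gda, had 12, 13 and 11 of 170 ends covered in mutant libraries, against 21, 19 and 26 in WT libraries.

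Bins that hold light chain loci, B-cell identity genes, known AID targets or Med1 itself numbered 20. Of these, 8 had a higher and 12 a lower share in the mutant libraries, with log2 differences from -0.36 to 0.34, a median of -0.04 and 0 at an unadjusted p under 0.05 by limma. The genotypes did not overlap in 2 of the 20, against 7.08% of all trans bins, so little can be read from that count. The bin of Pim1, a kinase gene and AID target, had 14, 18 and 18 of 322 ends covered in mutant libraries, against 21, 24 and 26 in WT libraries (log2 -0.36 ± 0.20, SE, limma adjusted p = 1). The bin of Rhoh, a GTPase gene and AID target, had 21, 23 and 20 of 275 ends in mutant libraries, against 19, 14 and 23 in WT libraries (log2 0.34 ± 0.18, SE, limma adjusted p = 1). The bin of Igkc, the kappa constant gene, had 25, 36 and 29 of 295 ends in mutant libraries, against 42, 33 and 38 in WT libraries, and that of Iglc1, a lambda constant gene, 33, 56 and 47 of 445, against 54, 39 and 61. Both light chain bins overlapped between genotypes. The bin of Myc had 23, 29 and 23 of 165 ends in mutant libraries, against 27, 17 and 28 in WT libraries. The bin of Med1 itself, on chromosome 11, had 10, 16 and 20 of 362 ends in mutant libraries, against 18, 25 and 21 in WT libraries, and overlapped as well.

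Set beside the other conditions, the difference between genotypes with LPS did not stand apart by the test of the difference itself. Of 27 regions, 0 (0%) had a genotype difference with LPS that differed from that of resting cells, and 0 (0%) from that of LPS and IL4 cultures, by limma contrasts over all 18 libraries (smallest adjusted p = 0.888 and 0.774), with 1 and 0 at an unadjusted p under 0.05. The 1 was the band of 3 to 10 Mb toward the centromere, with a log2 genotype difference of -0.06 with LPS and 0.34 at rest. The covered part of Ighg1 averaged 61.1 ± 3.16% in mutant and 69.1 ± 3.04% in WT LPS libraries, and 81.4 ± 8.04% in mutant and 81.4 ± 7.17% in WT libraries with LPS and IL4. At rest it averaged 66.7 ± 0.608% in mutant and 68.1 ± 7.47% in WT libraries. In share, the log2 genotype difference of Ighg1 with LPS differed from that with LPS and IL4 by 0.125 ± 0.207 (SE, limma adjusted p = 0.819). From that at rest it differed by -0.031 ± 0.207 (SE, limma adjusted p = 0.965). The covered part of Ighg3 averaged 79.0 ± 3.23% against 84.4 ± 2.46% with LPS, 81.2 ± 6.52% against 86.6 ± 1.86% at rest, and 85.5 ± 7.39% against 88.7 ± 1.61% with LPS and IL4 (mutant against WT, SD, n = 3 each). For the 3'RR the values were 81.9 ± 7.83% against 85.5 ± 3.01% with LPS, 74.5 ± 7.29% against 75.1 ± 6.03% at rest, and 84.1 ± 8.31% against 79.3 ± 5.85% with LPS and IL4. The deposits differ in aligner and in what was listed, so levels are compared between genotypes within a condition and not between conditions.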

How the data were processed

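The 4C-seq libraries of the LPS cultures were mapped with Bowtie2 and those of the earlier deposit with Bowtie, both to mm10, per the submitters' processing notes. Mapping parameters, filters and the rule for listing an end are not given in the sources used here. The 6 deposited LPS files hold coordinates alone, so no depth can be taken from them; the 12 others hold raw read counts per end, per the file headers, and an end with at least 1 read was taken as covered.

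Libraries were grouped by the labels, which on the WT libraries of the earlier deposit give WT as genotype and WTKO in the title. Covered ends were counted per region, window and bin, leaving out 57 ends within 5 kb of the bait. The covered part is relative to the 440025 ends that any of the 18 libraries listed, of which 56859 lie on chromosome 12 beyond the bait neighbourhood. Of the ends of the LPS lists, 46% were in no library of the earlier deposit. The tested value was log2((covered ends + 1) / (covered chromosome 12 or trans ends + 2) x 1000000), fitted with limma 3.58.1 (robust eBayes, 6 libraries, no covariate) in R 4.3.3, with Benjamini-Hochberg adjustment over all features of a comparison and a threshold of 0.05. Windows with a mean of at least 2 and bins with a mean of at least 5 covered ends were tested. Covered parts were compared by exact permutation in Python 3.11.15 with scipy 1.17.1. With a log2 change of 1 put into simulated data, the fits recovered 0% of changed windows, 50% of changed chromosome 12 bins and 28.5% of changed trans bins. At a log2 change of 2 they recovered 43.3, 97.5 and 98.5%. The simulated libraries differed only by sampling and list length, without the further spread of real libraries. Recovery in the real lists is therefore unknown, and counts of 0 calls set no limit on small changes or on changes in windows.

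Gene positions came from the RefSeq table for this assembly. Since no annotation of them was used, the positions of the 3' CTCF sites, the 3'RR and its pieces were fixed by distance from Igha and are approximate. Regions, loci and tests were chosen with earlier results of these data known. All regions are named, and of windows and bins the 3 with the lowest p where none was called; split ends were named after their values were seen. Alternatives were other library sizes, measures, bait neighbourhoods, pseudocounts, window sizes and filters, a block for the replicate number, and leaving out each of the 6 libraries in turn. Settings that leave out WT replicate 1 with mutant replicate 2, WT replicates 1 and 3, or the ends of the sharing pairs, and the block of sharing sets, were added after the data were examined.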

Additional observations from a re-analysis of the deposited data

How the results depend on the processing

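Covered parts saturate near the bait, the lists have no depth, and a 3 against 3 exact test cannot pass 0.05, so a missed call does not show that the genotypes act alike. Scaling to covered trans ends moved the median log2 difference of the regions to -0.047, against 0.088 as reported, a shift of -0.135. Of the 27 regions the sign turned in 10 under that scaling, in 6 with hits per end, in 18 with each log odds form, in 17 without WT replicates 1 and 3, in 2 without the ends of the sharing pairs and in 1 without WT replicate 1 and mutant replicate 2. It turned in none with the replicate block, another bait neighbourhood (Ighm has no end beyond 10 kb), a pseudocount of 0.5, the ends of the earlier deposit alone or all 18 libraries. Shares higher in the mutant libraries then numbered 10 with trans scaling, 14 with hits per end, 2 with each log odds form and 9 without WT replicates 1 and 3, against 20 as reported. Same-numbered libraries had deviations correlated at 0.1113, -0.1062 and -0.1729, which shows no pairing by number. These values cannot exclude one, since deviations from a mean of 3 libraries are tied to each other and mutant 1 and WT 1 also share ends. With the replicate block 0 regions were called. The 3 pairs that share ends had 0.4349 (mutant 2 and WT 3), 0.2152 (mutant 3 and WT 1) and 0.1113 (mutant 1 and WT 1). Mutant 1 and WT 2, not among these pairs, had 0.1142. With the sharing sets as a block, where WT replicate 2 stands alone, 0 regions were called and the sign turned in 2. The windows of 10 kb, chromosome 12 bins and trans chromosomes had 0 calls under each setting tried.

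Calls appeared in 4 settings. Unscaled log odds and log odds with the trans covariate called 1 region each, Ighm. Without the ends listed by a sharing pair alone, 13 regions were called, 11 higher and 2 lower in the mutant libraries; by construction this takes ends unevenly, leaving 6414, 6051 and 5304 chromosome 12 ends in mutant and 7382, 7576 and 7470 in WT libraries, and none is lost from WT replicate 2. Without WT replicates 1 and 3, which leaves a single WT library assumed to vary like the mutant ones, 3 trans bins were called.

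Signs turned to these log2 values. With trans scaling: Ighg2c -0.047, Ighg2b -0.026, Ighg1 -0.048, Ighm -0.092, 3' CTCF sites -0.002, far 3' flank -0.042, J/D region -0.075, proximal VH -0.065, cis 30 to 60 Mb -0.095 and cis beyond 60 Mb -0.093. With hits per end: Ighg2c -0.022, Ighg2b -0.124, Ighg1 -0.029, Ighm -0.386, 3' CTCF sites -0.002 and J/D region -0.017. With unscaled log odds: Ighe -0.321, Ighg2c -0.494, Ighg2b -0.865, Ighg1 -0.51, Ighg3 -0.504, Ighd -0.111, Ighm -1.499, the Ighd-Ighg3 interval -0.289, 3'RR -0.323, hs3a -0.491, hs1,2 -0.113, hs4 -0.137, 3' CTCF sites -0.536, far 3' flank -0.229, J/D region -0.43, proximal VH -0.326, cis 30 to 60 Mb -0.247 and cis beyond 60 Mb -0.25. With log odds and the trans covariate: Ighe -0.194, Ighg2c -0.339, Ighg2b -0.595, Ighg1 -0.505, Ighg3 -0.381, Ighd -0.079, Ighm -1.932, the Ighd-Ighg3 interval -0.315, 3'RR -0.098, hs3a -0.172, hs1,2 -0.113, hs4 -0.247, 3' CTCF sites -0.577, far 3' flank -0.018, J/D region -0.291, proximal VH -0.128, cis 30 to 60 Mb -0.052 and cis beyond 60 Mb -0.05. Without WT replicates 1 and 3: Ighe -0.085, Ighg2c -0.081, Ighg2b -0.038, Ighg1 -0.151, Ighg3 -0.067, Ighm -0.332, the Ighd-Ighg3 interval -0.076, 3'RR -0.025, hs3a -0.013, hs1,2 -0.08, hs4 -0.087, 3' CTCF sites -0.203, J/D region -0.073, proximal VH -0.003, cis 1 to 3 Mb 0.024, cis 3 to 10 Mb 0.1 and cis 10 to 30 Mb 0.027. Without the ends of the sharing pairs: near 3' flank 0.054 and middle VH 0.033. With the sharing sets as a block: near 3' flank 0.063 and middle VH 0.019. Without WT replicate 1 and mutant replicate 2: cis 3 to 10 Mb 0.007. The cause of these turns was not tested.

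Leaving out 1 library at a time called 0 regions, windows, bins or chromosomes, with an unadjusted p under 0.05 in 0 to 10 regions and the most without WT replicate 2. The log2 difference then ran from -0.008 to 0.173 for Ighg2c, -0.023 to 0.206 for Ighg1, -0.075 to 0.23 for Ighm, -0.062 to 0.071 for the near 3' flank, -0.01 to 0.127 for the J/D region, -0.061 to 0.04 for middle VH and -0.144 to 0.003 for cis 3 to 10 Mb; the other 20 regions kept their sign. Of these, Ighg3 ran from 0.044 to 0.289, Ighg2b from 0.024 to 0.183, Ighe from 0.084 to 0.288, Igha from 0.2 to 0.332, Ighd from 0.151 to 0.39, the Ighd-Ighg3 interval from 0.059 to 0.323, the 3'RR from 0.131 to 0.309, hs3a from 0.113 to 0.241, hs1,2 from 0.062 to 0.33, hs3b from 0.204 to 0.42, hs4 from 0.089 to 0.381, the 3' CTCF sites from 0.046 to 0.301, and the telomeric end from -0.21 to -0.126. Mutant minus WT list lengths ran from -10750 to -1649 ends.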
